A study of Mus musculus with 24 samples.

Results

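The effect of losing FoxO1 that is common to gonadal and inguinal white fat was measured over all 24 RNA-seq libraries of the series. The libraries come from 12 fat pads of 6 mice, and no library was left out. The series asked which genes and pathways FoxO1 regulates in fat. The 2 libraries of a pad were averaged, the gonadal and inguinal pads of a mouse were then averaged on the log2 scale, and 3 knockout mice (M5, M9 and M12) were set against 3 control mice (M6, M7 and M10). Gonadal and inguinal pads each contributed 6 knockout and 6 control libraries. Knockout mice are labelled as lacking FoxO1 conditionally in adipose tissue. Control mice are labelled as carrying the floxed FoxO1 gene. The sources used here do not give the Cre driver, the deleted exons, the age, the sex or the diet. Genotype, depot and mouse number were read from letters and numbers in the library names, which the sources used here do not spell out. Levels are FPKM, read counts scaled by the length of the gene and the reads of the library. Values of 3 pads are given in the order M5, M9 and M12 for knockout mice and M6, M7 and M10 for control mice. A fold change is a difference of log2(FPKM + 0.5), knockout minus control, averaged over both depots unless a depot is named. This scale understates the change of genes with low levels.

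FoxO1 is a forkhead transcription factor at the end of the insulin signalling pathway. When insulin activates the kinase AKT, FoxO1 is phosphorylated, leaves the nucleus and no longer acts on its target genes, so it is most active in fasting. In fat cells it has been tied to differentiation, lipid breakdown, oxidative defence and autophagy, while insulin itself drives glucose uptake and the making and storing of fat.

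FoxO proteins bind the letters TGTTTAC, and a related insulin response core reads TGTTTTG. Both were searched on both strands of RefSeq promoter windows (GRCm38.p6), which run from 250 bases before to 50 bases after a gene's start. The windows of 4 of the genes with such a run of letters are shown as examples, for glutathione transfer, lipogenesis, glucocorticoid activation and interferon response (the run is in capitals, as TGTTTAC or TGTTTTG or their reverse complements). That of Mmd2 is shown as the gene with the smallest p among the lower hormone receptor genes, and holds neither.
Gsta3 (chr1:21240335-21240634, plus strand): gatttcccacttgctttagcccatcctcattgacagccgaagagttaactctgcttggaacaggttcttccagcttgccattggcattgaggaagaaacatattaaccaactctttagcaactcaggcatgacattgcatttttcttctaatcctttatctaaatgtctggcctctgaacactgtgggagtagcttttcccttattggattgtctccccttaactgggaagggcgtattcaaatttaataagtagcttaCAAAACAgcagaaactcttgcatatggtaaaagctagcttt
Aacs (chr5:125475623-125475922, plus strand): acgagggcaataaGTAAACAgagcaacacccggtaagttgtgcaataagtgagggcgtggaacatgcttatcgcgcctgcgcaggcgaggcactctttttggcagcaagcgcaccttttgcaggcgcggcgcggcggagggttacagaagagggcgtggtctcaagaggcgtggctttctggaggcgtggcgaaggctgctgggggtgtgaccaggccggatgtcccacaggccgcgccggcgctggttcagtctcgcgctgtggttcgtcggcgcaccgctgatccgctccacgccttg
Hsd11b1 (chr1:193242311-193242610, minus strand): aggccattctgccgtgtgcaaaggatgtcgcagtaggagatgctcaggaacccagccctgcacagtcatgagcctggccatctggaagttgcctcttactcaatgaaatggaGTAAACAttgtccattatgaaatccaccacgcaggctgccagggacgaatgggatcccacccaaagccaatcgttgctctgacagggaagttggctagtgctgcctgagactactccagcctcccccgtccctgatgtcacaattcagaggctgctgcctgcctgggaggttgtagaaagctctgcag
Rsad2 (chr12:26456403-26456702, minus strand): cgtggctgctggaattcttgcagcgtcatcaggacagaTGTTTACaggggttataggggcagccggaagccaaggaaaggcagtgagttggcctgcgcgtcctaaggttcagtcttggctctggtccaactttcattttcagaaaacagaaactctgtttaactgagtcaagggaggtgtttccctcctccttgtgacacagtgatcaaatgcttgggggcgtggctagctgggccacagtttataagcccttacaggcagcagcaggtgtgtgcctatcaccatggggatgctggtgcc
Mmd2 (chr5:142608703-142609002, minus strand): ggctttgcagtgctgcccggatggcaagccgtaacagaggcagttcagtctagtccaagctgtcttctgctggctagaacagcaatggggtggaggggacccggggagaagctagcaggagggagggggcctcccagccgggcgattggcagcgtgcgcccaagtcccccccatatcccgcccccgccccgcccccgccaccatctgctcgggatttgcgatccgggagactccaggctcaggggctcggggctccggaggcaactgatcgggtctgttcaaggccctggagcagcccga
The insulin response core of Gsta3 starts 9 bases after the gene's start. The FoxO core starts 237 bases before the start in Aacs, 138 before in Hsd11b1 and 212 before in Rsad2. Among all 27025 promoters of the table, 4.05% held the FoxO core and 7.20% the insulin response core. Promoters were matched by symbol for 162 of the 212 genes higher in knockout pads of both depots and for 248 of the 353 lower ones. The FoxO core stood in 7 of the 162 (4.32%) and 4 of the 248 (1.61%), against 3.13% of the 9470 tested genes with a promoter. The higher genes with it were Aacs, Hsd11b1, Iars2, Lipe, Mpdu1, Rbp4 and Slc5a6, and the lower ones were Ankrd27, Ptpra, Rsad2 and Zc3h13. Lipe has 2 starts, and a window of it held an E-box but no FoxO core. A gene with several starts may thus be counted by any of its windows. The insulin response core stood in 7 of 162 higher genes (4.32%) and 8 of 248 lower genes (3.23%), against 5.42% of those tested. An E-box (CACGTG) stood in 19 of 162 higher genes (11.7%) and 25 of 248 lower genes (10.1%), against 11.8% of those tested. The sterol element (TCACNCCAC) stood in 3 of each, against 1.40% of those tested. These are matches of letters and do not show binding.

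Many fat synthesis genes were higher in knockout pads of both depots, and many genes of matrix, macrophages, interferon response and red blood cells were lower, but with 3 mice against 3 only 1 gene passed the main test. Of 13201 genes tested with limma, 1 passed an adjusted p of 0.05 (0.00758%), namely Gsta3, which rose. On the rebuilt reads edgeR called 0 genes and DESeq2 652. At an unadjusted p under 0.05, 632 genes were higher (4.79%) and 1328 were lower (10.1%) in knockout mice. Dividing each library by its median ratio to the other libraries of its depot turned this split into 943 higher and 928 lower, and left 0 genes called. In 212 genes all 3 knockout pads lay above all 3 control pads in both depots (1.61%), and in 353 genes all lay below (2.67%). After the same scaling there were 241 and 253 such genes. Within gonadal fat alone 7.39% of genes lay above and 8.01% below, and within inguinal fat 5.11% above and 17.5% below. Among the genes apart in both depots, the median fold change was 0.47 among the higher and -0.46 among the lower ones. Over all genes tested the median was -0.064, and 33.5% were higher. A limma fit on the 12 pads, with the depot as a term and the mouse as a random block (correlation 0.11), called 49 genes higher (0.371%) and 58 lower (0.439%). This 12-pad fit gives every gene the same correlation. Its p-values are therefore too small for genes in which the 2 pads of a mouse are more alike than that. It called 406 genes without control mouse M7, 147 without knockout mouse M5, 13 without control mouse M6, 8 without knockout mouse M9, 2 without knockout mouse M12 and 0 without control mouse M10. The exact two-sided permutation test over the 20 regroupings of 6 mice cannot go below p = 0.1. All 30 genes of the naming rule had this p. The rule took only genes whose pads were apart in both depots, which fixed this value in advance. Where genes of the rule are described below as apart in both depots, the rule required it. The depots share their mice, so a direction seen in both is not a repeat in other animals.

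Between 14953657 and 25438811 reads per library were assigned to genes. Across genes, r was 0.991 to 0.996 between the paired libraries of each of 12 pads, and 0.897 to 0.985 in 48 pairs of libraries from 2 mice of a group. All 20 fat cell marker genes passed the filter. Their summed level was 15677, 21754 and 16813 FPKM in knockout and 15932, 13546 and 14578 FPKM in control gonadal pads. In inguinal pads it was 35938, 34225 and 29234 FPKM in knockout and 30956, 45883 and 41857 FPKM in control mice. Male tract transcripts summed to 9866 FPKM in the gonadal pad of knockout M12, 4577 FPKM in that of control M10 and 702 FPKM in that of control M6. They reached at most 6.48 FPKM in the other gonadal pads. Pads are mixtures, so fewer cells of a type and less RNA per cell cannot be told apart.

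Foxo1 (ENSMUSG00000044167, chr3:52268337-52350109, plus strand in mm10), which the knockout targets, was lower in all 6 knockout pads than in any control pad of their depot. In gonadal fat it had 4.07, 4.46 and 4.01 FPKM in knockout pads, against 13.6, 7.87 and 9.53 FPKM in control pads. Inguinal pads gave 4.12, 2.49 and 5.69 FPKM in knockout pads, against 19.7, 13 and 14.5 FPKM in control pads. The groups did not overlap in either depot, and knockout pads kept 40.5% of the control mean in gonadal and 26.1% in inguinal fat. The shared fold change was -1.52 (SE 0.20), with a limma adjusted p of 0.11, and 0.0184 in the 12-pad fit. The value covers the whole gene in a whole pad, so reads from exons that are not deleted or from cells that keep the gene can be part of it. Of the related factors, Foxo3 differed by -0.19 (SE 0.15), Foxo4 by -0.13 (SE 0.071) and Foxo6 by 0.48 (SE 0.25), and none of these 3 reached an unadjusted p of 0.05.

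**Figure D1:**
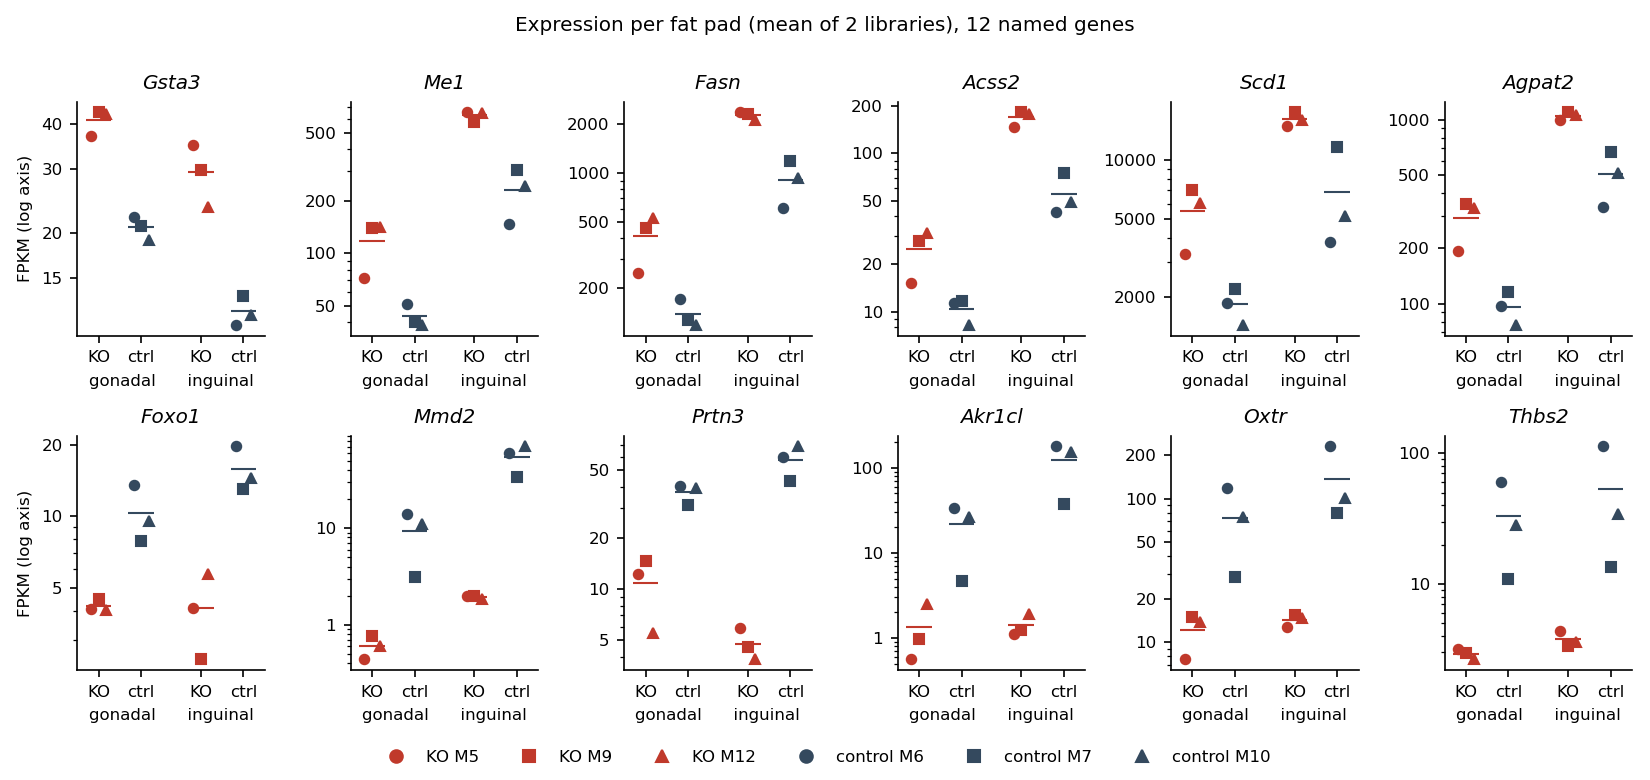
Level per fat pad (FPKM on a log axis, mean of 2 libraries) of 12 genes of the naming rule. Points are pads, marked by mouse, and horizontal lines are means of 3 pads. In the upper row the knockout pads lie above the control pads of the same depot, as in Gsta3 with 23.6 FPKM in the lowest inguinal knockout pad against 13.4 in the highest control pad. In the lower row they lie below. The naming rule took only genes whose pads were apart in both depots.

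Gsta3 rose in knockout mice. It encodes an alpha-class glutathione S-transferase, an enzyme that couples glutathione to reactive compounds and lipid peroxidation products (ENSMUSG00000025934, chr1:21240589-21265661, plus strand), and its promoter is the first one shown above. Gonadal fat had 37.1, 43.2 and 42.9 FPKM in knockout pads, against 22.1, 20.9 and 19.1 FPKM in control pads. Inguinal fat had 35.1, 29.9 and 23.6 FPKM in knockout pads, against 11.1, 13.4 and 11.9 FPKM in control pads. The knockout pads lay well apart from the controls in both depots, and the spread within each group was small. Means were 41.0 ± 3.4 against 20.7 ± 1.5 FPKM in gonadal fat and 29.5 ± 5.7 against 12.1 ± 1.2 FPKM in inguinal fat, knockout against control (SD, n = 3 each). The shared fold change was 1.10 (SE 0.076) with a limma adjusted p of 0.0466. Leaving out mice gave adjusted p of 0.0272 without control M7 and 0.0638 to 0.392 without any one of the other 5, and edgeR on rebuilt reads gave 0.0625. Over the list of oxidative defence genes, 14 of 31 were higher, with a median of -0.018 that turned positive (0.052) after scaling. Its members with the smallest p went both ways. Gsta4, of the same enzyme class, differed by 0.55 (SE 0.12), and Gpx1, the cytosolic glutathione peroxidase, by -0.35 (SE 0.13). Gpx3, the secreted glutathione peroxidase, had 168, 249 and 408 FPKM in knockout pads, against 1042, 354 and 1228 FPKM in control pads in gonadal fat. The inguinal levels were 280.0, 232 and 194 FPKM in knockout pads, against 1924, 1219 and 1418 FPKM in control pads. Only the inguinal groups were apart, since control M7 in gonadal fat lay below knockout M12, and the shared fold change was -2.13 (SE 0.30) (limma adjusted p 0.11, and 0.031 in the 12-pad fit). Gst genes are close relatives, and the sources used here do not say how shared reads were counted.

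Most genes of de novo lipogenesis, the pathway that turns glucose carbon into fatty acids, were higher in knockout fat of both depots. Of 23 members tested, 20 were higher, 17 of them at an unadjusted p under 0.05 with 1 lower. Knockout pads lay above all controls in both depots in 12 members and below in 1. The median fold change was 0.67 (gonadal fat 0.56, inguinal fat 0.71), between 0.53 and 0.87 with any one mouse left out. None passed the main test, and 5 passed in the 12-pad fit. The summed level of the list was 5404, 10343 and 9427 FPKM in knockout and 3660.1, 3887 and 2918 FPKM in control gonadal pads. In inguinal pads it was 25803, 28302 and 26471 FPKM in knockout and 7712, 18523 and 10645 FPKM in control mice. The sums did not overlap in either depot, with knockout M5 nearest to the controls in gonadal and control M7 nearest to the knockouts in inguinal fat. Scd1 alone gave 3312 of the 5404 FPKM of knockout M5 in gonadal fat and 17620 of the 28302 FPKM of knockout M9 in inguinal fat. The naming rule took Scd1 as apart in both depots, so the gap between the sums says little of the other members.

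Following the pathway, Slc2a4, the insulin-responsive glucose transporter GLUT4, had 33.6, 43.9 and 40.6 FPKM in knockout pads, against 32.4, 24.1 and 24.7 FPKM in control pads in gonadal fat and a shared fold change of 0.47 (SE 0.068). Aacs, which makes acetoacetyl-CoA for lipid synthesis and whose promoter is shown above, differed by 0.56 (SE 0.15). Slc25a1, which exports citrate from mitochondria, differed by 1.32 (SE 0.21), and Acly, which splits that citrate into acetyl-CoA, by 1.11 (SE 0.18). Acss2, which makes acetyl-CoA from acetate, had 15.2, 28 and 31.2 FPKM in knockout pads, against 11.3, 11.7 and 8.19 FPKM in control pads in gonadal fat. In inguinal fat Acss2 had 148, 182 and 177 FPKM in knockout pads, against 42.4, 74.8 and 49.5 FPKM in control pads. Its groups were apart in both depots, and its shared fold change was 1.40 (SE 0.21) (limma adjusted p 0.11, and 0.0212 in the 12-pad fit). Acss2 overlaps Gss on the other strand, which averaged 9.38 FPKM over the knockout pads and 8.42 FPKM over the controls. Acaca, the acetyl-CoA carboxylase that makes malonyl-CoA, had 322, 296 and 297 FPKM in knockout pads, against 88.8, 181 and 139 FPKM in control pads in inguinal fat. Its gonadal levels were lower, at 30.4, 47 and 56 FPKM in knockout pads, against 28.1, 21.1 and 21.7 FPKM in control pads. The shared fold change of Acaca was 1.04 (SE 0.12), larger than the spread between mice but short of the threshold (limma adjusted p 0.11). Fasn, the fatty acid synthase (ENSMUSG00000025153, chr11:120805940-120824178, minus strand), had 245, 464 and 529.9 FPKM in knockout pads, against 169.9, 127 and 118 FPKM in control pads in gonadal fat. In inguinal fat Fasn had 2349, 2291 and 2118 FPKM in knockout pads, against 616, 1182 and 938 FPKM in control pads. In both depots the lowest knockout pad lay above the highest control, as the naming rule requires. The shared fold change of Fasn was 1.44 (SE 0.16) (limma adjusted p 0.105, and 0.0226 in the 12-pad fit). NADPH for this synthesis comes from malic enzyme and the pentose phosphate pathway. Me1, the cytosolic malic enzyme, had 72.4, 141 and 142 FPKM in knockout pads, against 51.1, 40.1 and 38.5 FPKM in control pads in gonadal fat. In inguinal fat Me1 had 656, 579.5 and 653 FPKM in knockout pads, against 149, 306 and 245 FPKM in control pads. The depots gave close values, with a gonadal value of 1.39 (SE 0.28) and an inguinal value of 1.49 (SE 0.27). G6pdx, the entry enzyme of the pentose phosphate pathway, went the other way and differed by -0.27 (SE 0.098), with knockout pads below all controls in both depots. Among the genes that desaturate and lengthen the new fatty acids, Scd1 reached 14922, 17620.4 and 16005 FPKM in inguinal knockout pads, against 3813, 11641 and 5183 FPKM in control pads. In gonadal fat it had 3312, 7024 and 6057 FPKM in knockout pads, against 1861, 2182 and 1426 FPKM in control pads. The groups were apart, but control M7 was far above the other controls in inguinal fat, and the shared fold change was 1.47 (SE 0.36) (limma adjusted p 0.169). Elovl6, an elongase, differed by 1.42 (SE 0.30), and Thrsp, a regulator of lipogenesis, by 1.25 (SE 0.19). Srebf1, the transcription factor that drives these genes under insulin, differed by 0.38 (SE 0.14), with a gonadal value of 0.56 (SE 0.18) and an inguinal value of 0.20 (SE 0.21), and the inguinal groups overlapped. Aacs, Slc25a1, Acly, G6pdx, Elovl6, Thrsp and Srebf1 were chosen after their values were seen.

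Most triglyceride assembly genes were higher on the average of both depots too, with a difference between the depots' medians that was not tested. Of 17 members, 13 were higher, 9 at an unadjusted p under 0.05 with 1 lower, and the median was 0.42 (gonadal fat 0.65, inguinal fat 0.12). By sign, 8 members were higher in both depots and 3 were lower in both. Knockout pads lay above all controls in both depots in 4 members, which were Agpat2, Gpd1, Dgat2 and Mogat2, and below in 0. Gpd1, which makes the glycerol 3-phosphate backbone, had 87.5, 158 and 163 FPKM in knockout pads, against 51.4, 62.1 and 44.4 FPKM in control pads in gonadal fat. In inguinal fat Gpd1 had 692, 741 and 711 FPKM in knockout pads, against 253, 509.7 and 464 FPKM in control pads. The shared fold change was 1.10 (SE 0.20) (limma adjusted p 0.12, and 0.0478 in the 12-pad fit). Agpat2, which adds the next acyl chain and whose loss causes lipodystrophy in humans, had 194, 348 and 332 FPKM in knockout pads, against 97.7, 116 and 76.6 FPKM in control pads in gonadal fat. In inguinal fat Agpat2 had 990.3, 1097 and 1056 FPKM in knockout pads, against 336, 670.0 and 515 FPKM in control pads. The pads of the 2 genotypes did not overlap in either depot, and the shared fold change was 1.33 (SE 0.20) (limma adjusted p 0.11, and 0.0226 in the 12-pad fit). Dgat2, which completes the triglyceride, differed by 0.78 (SE 0.17), and its chromosome 7 neighbour Mogat2, a monoacylglycerol acyltransferase, by 0.88 (SE 0.24). These 2 genes were chosen after their values were seen. Lpin1, the phosphatidic acid phosphatase, differed by 0.61 (SE 0.10). Pck1, the glyceroneogenic enzyme that is also a classic FoxO1 target in liver, had 203, 209 and 249 FPKM in knockout pads, against 110.0, 83.5 and 88.7 FPKM in control pads in gonadal fat. In inguinal fat Pck1 had 1166, 960.1 and 997 FPKM in knockout pads, against 642, 882 and 1204 FPKM in control pads. The groups were apart in gonadal fat and overlapped in inguinal fat, so the shared fold change of 0.73 (SE 0.11) rests mainly on the gonadal value of 1.23 (SE 0.14), with 0.24 (SE 0.25) in inguinal fat.

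**Figure D2:**
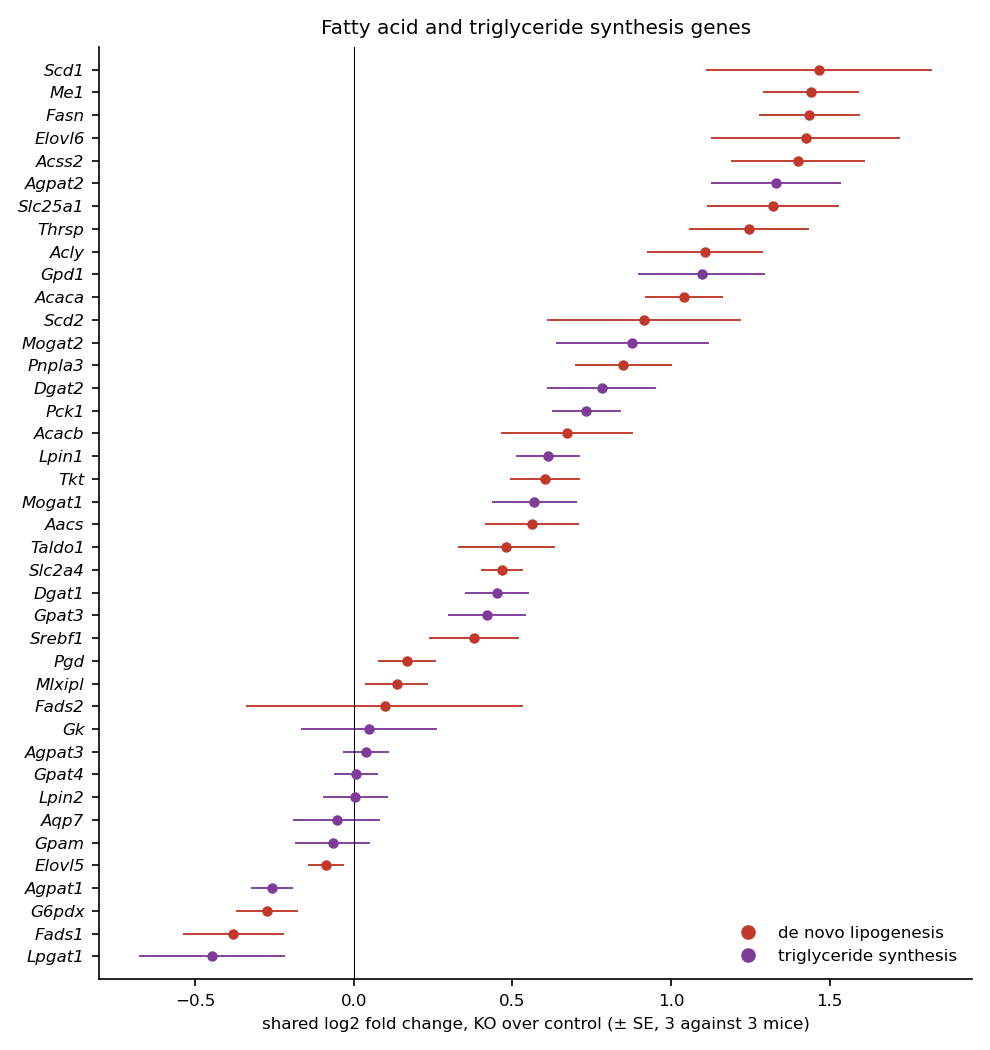
Shared log2 fold change (knockout over control, averaged over both depots) of the tested genes of de novo lipogenesis and triglyceride synthesis, sorted by size. Bars are standard errors from 3 mice against 3. Scd1, Me1, Fasn and Elovl6 stand at the top at 1.42 to 1.47, and Lpgat1 at the bottom.

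Mitochondrial fuel genes were higher by small amounts in many members. Oxidative phosphorylation subunits were higher in 33 of 34, 10 at an unadjusted p under 0.05, with a median of 0.19 that was 0.10 without control M6, and 1 lay above and 0 below all controls in both depots. Examples are the complex I subunits Ndufs3 at 0.27 (SE 0.073) and Ndufs1 at 0.35 (SE 0.11), cytochrome c1 (Cyc1) at 0.35 (SE 0.12) and the complex III core subunit Uqcrc2 at 0.31 (SE 0.10). Fatty acid oxidation genes were higher in 22 of 24, 10 at an unadjusted p under 0.05, with a median of 0.27 that was 0.16 without control M6, and 1 lay above and 0 below all controls in both depots. Their leading member was the nuclear receptor Ppara at 0.81 (SE 0.18), followed by the enzymes Hadh, Echs1 and Decr1 at 0.36, 0.31 and 0.33. Branched-chain amino acid breakdown had 18 of 21 higher, 11 at an unadjusted p under 0.05, with a median of 0.23 and with 0.042 in inguinal fat, and 2 lay above and 0 below all controls in both depots. Dld, a subunit of the branched-chain and pyruvate dehydrogenases, differed by 0.39 (SE 0.10) and Hibch, Mut and Bckdha by 0.29, 0.24 and 0.30. Glycolysis and the citrate cycle had 26 of 30 higher, 11 at an unadjusted p under 0.05, 5 apart in both depots, and a median of 0.24. These counts are of the average of both depots. By sign, 28 oxidative phosphorylation, 20 fatty acid oxidation, 15 branched-chain breakdown and 16 glycolysis and citrate cycle members were higher in both depots. Those lower in both depots numbered 0, 1, 1 and 2. Pcx, pyruvate carboxylase, which refills the citrate cycle for lipid synthesis, had 149.7, 219 and 239 FPKM in knockout pads, against 120.3, 107 and 99.8 FPKM in control pads in gonadal fat. In inguinal fat Pcx had 722, 606 and 607 FPKM in knockout pads, against 242, 440.1 and 314 FPKM in control pads. Its groups were apart in both depots, and its fold change of 0.93 (SE 0.12) was called in the 12-pad fit (limma adjusted p 0.0322, 0.11 in the main fit). Pdha1, a pyruvate dehydrogenase subunit, Pfkfb3, which makes the activator of phosphofructokinase, and Idh3a, an isocitrate dehydrogenase subunit, differed by 0.52, 0.48 and 0.49.

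Fat cell marker genes were higher in 16 of 20, with a median of 0.23 that came to 0.48 in gonadal and 0.024 in inguinal fat. Of these markers, 11 were higher and 1 was lower in both depots. Acsl1, which activates fatty acids, differed by 0.72 (SE 0.097) and Lipe, the hormone-sensitive lipase, by 0.46 (SE 0.086). Lipolysis and droplet genes had 17 of 23 higher, 6 against 1 at an unadjusted p under 0.05. The median of this list was 0.19 (gonadal fat 0.34, inguinal fat 0.040), and 0.10 without control M6 and 0.11 without knockout M9. Of its members, 1 lay above and 0 below all controls in both depots. By sign, 13 members of the list were higher and 4 lower in both depots. Besides Lipe, its members included Pde3b, the phosphodiesterase by which insulin curbs lipolysis, at 0.23 (SE 0.070) and the droplet protein Cidea at 0.99 (SE 0.30).

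The other genes of the naming rule that were higher have varied roles. Enpep, an aminopeptidase that cleaves angiotensin II, had 14.6, 23.1 and 19 FPKM in knockout pads, against 13.8, 9.54 and 10.8 FPKM in control pads in gonadal fat. In inguinal fat it had 31.6, 26 and 25.9 FPKM in knockout pads, against 10.7, 17.4 and 12.1 FPKM in control pads. Its groups were apart, closely so in gonadal fat, and its fold change was 0.87 (SE 0.077) (limma adjusted p 0.105). Slc25a10, the mitochondrial dicarboxylate carrier, differed by 0.94 (SE 0.11), Pex16, needed to build peroxisomes, by 0.66 (SE 0.072), and the adaptor gene Bcar3 by 0.93 (SE 0.10). Rfc4, a subunit of the clamp loader of DNA replication, had 8.28, 8.19 and 7.76 FPKM in knockout pads, against 4.79, 4.06 and 4.11 FPKM in control pads in gonadal fat. Its inguinal levels were 7.13, 7.0 and 8.97 FPKM in knockout pads, against 4.39, 2.86 and 3.65 FPKM in control pads. This gave a fold change of 0.92 (SE 0.11) (limma adjusted p 0.11, and 0.00888 in the 12-pad fit). Rfc4 overlaps Eif4a2 by 194 bases on the other strand, and Eif4a2 averaged 100.4 FPKM over the knockout pads and 128 FPKM over the controls. The cell cycle list, which includes Rfc4, had a median of 0.16 that was 0.075 without knockout M5. Its depot medians pointed opposite ways, at -0.071 in gonadal and 0.33 in inguinal fat. Of 28 members, 6 were higher and 5 lower in both depots. At an unadjusted p under 0.05, 3 members were higher and 1 lower. Those were Rfc4, Ccne2 at 0.32 (SE 0.12) and Ccne1 at 0.24 (SE 0.094), the cyclins E, and the inhibitor gene Cdkn1c at -0.82 (SE 0.30). Tmem179 had 73.5, 72.9 and 72.6 FPKM in knockout pads, against 24.1, 37.2 and 28.3 FPKM in control pads in inguinal fat, with a fold change of 1.39 (SE 0.17) and a limma adjusted p of 0.00888 in the 12-pad fit. The synaptotagmin gene Syt12 differed by 1.39 (SE 0.23). Efcab8 differed by 1.49 (SE 0.37) at levels of 0.194 to 5.55 FPKM.

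Genes described elsewhere as FoxO targets went both ways. Over all genes tested 33.5% were higher, with 4.79% higher and 10.1% lower at an unadjusted p under 0.05. Of 30 FoxO targets tested, 10 were higher, with 4 higher and 4 lower at that p and a median of -0.11. The median was -0.020 without knockout M9, -0.028 without control M6, -0.059 without control M10, -0.19 without control M7 and -0.037 after scaling, and 14 members were higher without M9. The higher ones were Pck1, the autophagy kinase gene Ulk1 at 0.20 (SE 0.065), the transcription factor gene Klf15 at 0.25 (SE 0.087) and the mitochondrial peroxiredoxin gene Prdx3 at 0.13 (SE 0.052). The lower ones were Bcl6, Map1lc3b, which encodes the autophagosome protein LC3B, at -0.30 (SE 0.077), the stress gene Gadd45a at -0.43 (SE 0.12) and the sestrin gene Sesn1 at -0.30 (SE 0.10). Bcl6, a transcriptional repressor, had 12.7, 11.8 and 10.7 FPKM in knockout pads, against 21.4, 22.6 and 19.1 FPKM in control pads in gonadal fat. Inguinal levels were 6.45, 4.16 and 11.2 FPKM in knockout pads, against 32.6, 32 and 16.8 FPKM in control pads. Knockout pads lay below the controls in both depots, and the fold change was -1.34 (SE 0.21) (limma adjusted p 0.11). In the insulin signalling list 16 of 36 members were higher, with a median of -0.031 that changed sign with the scaling. At an unadjusted p under 0.05 it held 3 higher members, which were Slc2a4, Pde3b and Phlda3, an inhibitor of AKT, at 0.44 (SE 0.17). The 1 lower member was Grb10, an adaptor that restrains the insulin receptor, at -0.45 (SE 0.10).

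Receptor and steroid metabolism genes had several of the large negative fold changes. Mmd2 (ENSMUSG00000039533, chr5:142562365-142608800, minus strand), a relative of the adiponectin receptors (progestin and adipoQ receptor family) whose promoter is shown above, was far lower in knockout fat. It had 0.435, 0.757 and 0.594 FPKM in knockout pads, against 13.9, 3.1 and 11 FPKM in control pads in gonadal fat. Inguinal pads gave 1.99, 2.0 and 1.85 FPKM in knockout pads, against 60.8, 34 and 70.4 FPKM in control pads. The knockout pads varied little among themselves, while control M7 had the lowest control level in both depots. Means were 6.39% of control in gonadal and 3.54% in inguinal fat, and the shared fold change was -3.70 (SE 0.37) (limma adjusted p 0.105, and 0.00712 in the 12-pad fit). Oxtr, the oxytocin receptor gene (ENSMUSG00000049112, chr6:112473684-112489808, minus strand), had 7.61, 15 and 13.8 FPKM in knockout pads, against 119, 28.5 and 74.5 FPKM in control pads in gonadal fat. The inguinal levels were 12.8, 15.4 and 14.7 FPKM in knockout pads, against 231, 79 and 101 FPKM in control pads. Again the groups did not overlap and M7 was the lowest control, and the fold change was -2.73 (SE 0.44) (limma adjusted p 0.11, and 0.0175 in the 12-pad fit). Mc2r, the adrenocorticotropin receptor gene, had 8.01, 6.4 and 5.34 FPKM in knockout pads, against 17.5, 15.5 and 13.9 FPKM in control pads in inguinal fat and a fold change of -1.0 (SE 0.16) (limma adjusted p 0.11). Akr1cl, of the aldo-keto reductase family (ENSMUSG00000025955, chr1:65012689-65032759, minus strand), had 0.562, 0.987 and 2.54 FPKM in knockout pads, against 33.7, 4.63 and 26.7 FPKM in control pads in gonadal fat. In inguinal fat it had 1.13, 1.23 and 1.94 FPKM in knockout pads, against 178, 37 and 151 FPKM in control pads. Its fold change of -4.52 (SE 0.67) was the largest among the named genes, with a limma adjusted p of 0.11, and 0.0184 in the 12-pad fit. Hsd11b1, whose enzyme turns inactive into active glucocorticoid and whose promoter is shown above, went the other way. It had 32.1, 40.3 and 38.8 FPKM in knockout pads, against 18.7, 21.5 and 17.7 FPKM in control pads in gonadal fat. Its inguinal levels were 415, 304 and 307 FPKM in knockout pads, against 61.3, 189 and 173 FPKM in control pads. Every knockout pad exceeded the controls of its depot, and the fold change was 1.17 (SE 0.22) (limma adjusted p 0.124). Over the list of hormone receptor and steroid genes, 12 of 23 were higher, with 3 in each direction at an unadjusted p under 0.05.

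Prtn3, which encodes proteinase 3, a protease of neutrophil granules (ENSMUSG00000057729, chr10:79874476-79883174, plus strand), was also lower in both depots. Its gonadal levels were 12.3, 14.7 and 5.55 FPKM in knockout pads, against 40.2, 31.2 and 39.4 FPKM in control pads. Its inguinal levels were 5.92, 4.59 and 3.86 FPKM in knockout pads, against 59.9, 43.3 and 68.8 FPKM in control pads. The groups were far apart, and the fold change was -2.63 (SE 0.25) (limma adjusted p 0.105, and 0.0175 in the 12-pad fit). Elane, the neutrophil elastase gene, which neutrophil precursors express with Prtn3, differed by -0.20 (SE 0.20), but its depots pointed opposite ways, with a gonadal value of 0.36 (SE 0.40) and an inguinal value of -0.76 (SE 0.17). Its inguinal levels were 0.974, 0.703 and 0.898 FPKM in knockout pads, against 1.44, 1.97 and 2.03 FPKM in control pads, so that the knockout pads lay below the controls there. The difference between depots had a limma adjusted p of 0.738 (unadjusted 0.0448). Prtn3 overlaps BC005764 by 159 bases on the other strand, and BC005764 (now Plppr3) had 6.93, 7.82 and 5.87 FPKM in knockout pads, against 41.8, 12.1 and 38.8 FPKM in control pads in gonadal fat. Its fold change was -2.46 (SE 0.39) (limma adjusted p 0.11), and without the strand setting of the counting their reads cannot be told apart within the overlap. Cfd, the adipsin gene on the other side of Prtn3, had 5268, 4558 and 3321 FPKM in knockout pads, against 9807, 11812 and 12542 FPKM in control pads in inguinal fat and a fold change of -1.10 (SE 0.26). Med16, a Mediator subunit gene of the same region of chromosome 10, differed by 0.15 (SE 0.12). Elane, BC005764 and Med16 were chosen after values were seen. Among neutrophil and mast cell genes, 10 of 11 were lower and 5 at an unadjusted p under 0.05, with a median of -0.46 that was -0.30 without control M6, including S100a9 at -1.05 (SE 0.18), Retnlg at -0.99 (SE 0.23) and Csf3r at -0.43 (SE 0.13).

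Most matrix genes were lower in knockout fat. Of 32 members 29 were lower, 19 at an unadjusted p under 0.05 with 0 higher, and 6 lay below all controls in both depots. The summed level of the list overlapped in gonadal fat, at 6631, 5530 and 4587 FPKM in knockout and 6337, 7472 and 6203 FPKM in control pads. In inguinal fat the sums were apart, at 2747, 3290 and 2720 FPKM in knockout and 3790, 3352 and 3547 FPKM in control pads. The median was -0.37, between -0.43 and -0.26 with any one mouse left out, and -0.30 after scaling. Thrombospondins are matricellular proteins that bind growth factors and cell receptors. Thbs2 had 3.17, 2.99 and 2.66 FPKM in knockout pads, against 60.6, 11 and 28.3 FPKM in control pads in gonadal fat. Inguinal levels were 4.36, 3.37 and 3.64 FPKM in knockout pads, against 113, 13.4 and 34.5 FPKM in control pads. Knockout pads held a narrow low range while controls varied widely, with M6 highest and M7 lowest in both depots. The fold change was -3.07 (SE 0.62) (limma adjusted p 0.13, and 0.0225 in the 12-pad fit). The 12-pad value allows for this likeness of a mouse's pads only by the correlation of 0.11 used for all genes. Thbs1 had 1.24, 1.23 and 1.57 FPKM in knockout pads, against 72.2, 7.61 and 26.9 FPKM in control pads in inguinal fat and a fold change of -2.76 (SE 0.52) (limma adjusted p 0.124). Postn, periostin, which cross-links collagen, had 12.8, 13.5 and 13 FPKM in knockout pads, against 19.8, 18.6 and 21.9 FPKM in control pads in gonadal fat. Inguinal pads gave 20.3, 21.8 and 19.8 FPKM in knockout pads, against 24, 27.9 and 29.9 FPKM in control pads. Its difference was small against that of the thrombospondins, at -0.49 (SE 0.077) (limma adjusted p 0.11, and 0.0212 in the 12-pad fit). Col6a3, a collagen VI chain abundant in fat, differed by -0.46 (SE 0.086). Spon1, which encodes the secreted matrix protein F-spondin, had 10.9, 8.85 and 7.23 FPKM in knockout pads, against 24.4, 19.1 and 32.7 FPKM in control pads in gonadal fat. The inguinal levels were 6.23, 4.43 and 4.06 FPKM in knockout pads, against 35.2, 22.5 and 46 FPKM in control pads. The groups were apart, and the fold change was -2.04 (SE 0.25) (limma adjusted p 0.11, and 0.0175 in the 12-pad fit). Genes of fat cell progenitors were lower in 15 of 18, with a median of -0.30, among them Clec11a at -0.44 (SE 0.099), Anxa3 at -0.68 (SE 0.15), Ly6a at -0.77 (SE 0.21) and the receptor gene Pdgfra at -0.45 (SE 0.14). Of these progenitor genes, 12 were lower and 2 higher in both depots. Their summed level was 536, 548 and 468 FPKM in knockout and 698, 610.5 and 608 FPKM in control gonadal pads. In inguinal pads it was 435, 387 and 428 FPKM in knockout and 613, 483 and 551 FPKM in control mice. Knockout sums lay below all controls in both depots, and their part in the matrix values was not tested. Of 22 TGF-beta and activin genes, 18 were lower, 10 at an unadjusted p under 0.05 against 1 higher, with a median of -0.26. They were led by Bmper, which binds BMPs, at -0.64 (SE 0.12), Cyr61 at -0.43 (SE 0.091), the follistatin-like gene Fstl1 at -0.50 (SE 0.12) and the receptor gene Tgfbr2 at -0.32 (SE 0.085). Wnt pathway genes were lower in 15 of 19, 8 at an unadjusted p under 0.05, with a median of -0.25 that was -0.13 without control M6, when 7 were higher, and 0 lay below all controls in both depots. Of these Wnt genes, 11 were lower and 2 higher in both depots. They were led by the receptor gene Fzd1 at -0.39 (SE 0.10) and the secreted inhibitor Sfrp4 at -0.65 (SE 0.22).

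Water channel genes and a set of genes with smaller differences completed the lower genes of the naming rule. Aqp5 had 0.56, 0.449 and 0.428 FPKM in knockout pads, against 178, 9.31 and 41 FPKM in control pads in inguinal fat. In gonadal fat it had 8.98, 6.72 and 5.73 FPKM in knockout pads, against 68.6, 9.69 and 28.9 FPKM in control pads. Control M7 stood close to the knockouts in gonadal fat, and the fold change was -3.64 (SE 0.80) (limma adjusted p 0.152). Its chromosome 15 neighbour Aqp2 differed by -2.43 (SE 0.65) at 0.148 to 22.5 FPKM. Tppp3, a tubulin-binding protein gene, had 16.7, 23.6 and 17.8 FPKM in knockout pads, against 24.8, 30.9 and 24.9 FPKM in control pads in gonadal fat and 22.1, 22.4 and 22 FPKM in knockout pads, against 44.5, 46 and 57.9 FPKM in control pads in inguinal fat. The shared fold change of Tppp3 was -0.80 (SE 0.092). Lrg1, which encodes a secreted leucine-rich glycoprotein, had 236, 305 and 158 FPKM in knockout pads, against 483, 384 and 428 FPKM in control pads in gonadal fat. In inguinal fat it had 128, 148 and 139 FPKM in knockout pads, against 467, 326 and 446 FPKM in control pads. Knockout pads lay below the controls in both depots, and the fold change was -1.25 (SE 0.17) (limma adjusted p 0.11, and 0.0212 in the 12-pad fit). Ggt5, a gamma-glutamyltransferase gene, differed by -0.89 (SE 0.13), Ttpa, the vitamin E transfer protein gene, by -0.97 (SE 0.14), and Bnc2, a zinc finger gene, by -0.71 (SE 0.096).

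Many immune genes were lower in knockout fat. Macrophage genes were lower in 18 of 20, 13 at an unadjusted p under 0.05, with a median of -0.70 (gonadal fat -0.34, inguinal fat -0.97) that was -0.43 with edgeR on reads summed over both depots. Of its members 1 lay below all controls in both depots. The summed level of the macrophage list overlapped in gonadal fat, at 14263, 10746 and 9365 FPKM in knockout and 10344, 15647 and 13209 FPKM in control pads. In inguinal fat the sums were apart, at 2943, 2867 and 2920 FPKM in knockout and 3785, 3199 and 3161 FPKM in control pads. The member that was higher at an unadjusted p under 0.05, Lpl, is also made by fat cells. Adgre1, the F4/80 antigen gene, had 3.23, 2.5 and 2.88 FPKM in knockout pads, against 10.9, 5.15 and 7.94 FPKM in control pads in inguinal fat. In gonadal fat it had 51.9, 36.1 and 35 FPKM in knockout pads, against 53.2, 54.6 and 48.8 FPKM in control pads. Knockout and control pads were apart in inguinal fat only, and the shared fold change was -0.82 (SE 0.16). Csf1r, the receptor on which macrophages depend, differed by -0.72 (SE 0.14), Itgam by -0.70 (SE 0.14) and the mannose receptor gene Mrc1 by -0.77 (SE 0.21). Csf1, the ligand of Csf1r, had 22.5, 21.5 and 15.8 FPKM in knockout pads, against 27.9, 26.1 and 27 FPKM in control pads in gonadal fat. Its inguinal levels were 10.1, 9.35 and 9.27 FPKM in knockout pads, against 19.7, 14.9 and 15.2 FPKM in control pads. Knockout pads lay below all controls in both depots, with a fold change of -0.60 (SE 0.11) (limma adjusted p 0.119, and 0.0366 in the 12-pad fit). Inflammatory cytokine and chemokine genes were lower in 15 of 17, 9 at an unadjusted p under 0.05, with a median of -0.49. The chemokine genes Ccl2, Ccl7 and Cxcl12 differed by -0.77 (SE 0.11), -0.85 (SE 0.13) and -0.49 (SE 0.085). B cell markers, with 11 tested, and T and NK cell markers, with 13, had none at an unadjusted p under 0.05 in either direction. Summed T and NK cell markers in inguinal pads were 143, 10.8 and 225 FPKM in knockout and 189.6, 9.31 and 149 FPKM in control mice, so that knockout M9 and control M7 stood apart from the rest.

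Interferon-stimulated genes were lower in 22 of 22, 8 at an unadjusted p under 0.05, and 4 lay below all controls in both depots. The median was -0.65, and -0.86 to -0.30 with any one mouse left out, the last without control M6. Rsad2, which encodes the antiviral enzyme viperin and holds a FoxO core in the promoter shown above, had 2.48, 2.42 and 2.29 FPKM in knockout pads, against 14.6, 3.44 and 7.62 FPKM in control pads in gonadal fat. Inguinal levels were 2.56, 2.72 and 3.05 FPKM in knockout pads, against 12.6, 3.82 and 7.12 FPKM in control pads. Knockout pads were alike while controls ran from M7 at the low end to M6 at the high end, and the fold change was -1.32 (SE 0.41) (limma adjusted p 0.227). Isg15, a ubiquitin-like protein gene, differed by -1.44 (SE 0.40), the tetherin gene Bst2 by -0.72 (SE 0.25) and Oas1a by -0.75 (SE 0.27).

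Red blood cell genes were lower in 8 of 8, all at an unadjusted p under 0.05, with a median of -1.64. Their summed level was 1616, 4192 and 3221 FPKM in knockout and 13639, 4238 and 6028 FPKM in control gonadal pads. In inguinal pads it was 2304, 2366 and 2565 FPKM in knockout and 10560.3, 3068 and 10069.9 FPKM in control mice. The sums did not overlap, though knockout M9 and control M7 nearly met in gonadal fat, and the part of blood in the other lower genes was not tested. The anion exchanger gene Slc4a1 differed by -1.80 (SE 0.48), and the globin gene Hba-a2, which is nearly identical to Hba-a1, by -1.63 (SE 0.46). Immediate early genes were lower in 20 of 21, 7 at an unadjusted p under 0.05, with a median of -0.28 that was -0.17 without knockout M9, and 0 lay below all controls in both depots. The smallest p were those of Jun at -0.36 (SE 0.080), Fosl2 at -0.58 (SE 0.14), Klf4 at -0.50 (SE 0.12) and Klf6 at -0.24 (SE 0.063). Genes of endoplasmic reticulum stress were lower in 20 of 24, 9 against 1 higher at an unadjusted p under 0.05, with a median of -0.25 that was -0.15 with edgeR. Pdia4, a protein disulfide isomerase gene, had 64.8, 51.2 and 70 FPKM in knockout pads, against 86.7, 84.9 and 90 FPKM in control pads in gonadal fat and a shared fold change of -0.55 (SE 0.11) (limma adjusted p 0.124, and 0.0266 in the 12-pad fit). The chaperone gene Hsp90b1 differed by -0.39 (SE 0.089), and Edem1, which helps clear misfolded proteins, by -0.24 (SE 0.058). Imprinted growth genes were lower in 14 of 16, 4 at an unadjusted p under 0.05. By sign, 10 were lower and 1 was higher in both depots. Nnat, a small membrane protein gene expressed from the paternal copy, had 178, 169.8 and 102 FPKM in knockout pads, against 744, 252 and 459 FPKM in control pads in gonadal fat. Inguinal pads gave 372, 433 and 284 FPKM in knockout pads, against 1796, 906 and 1369.5 FPKM in control pads. The groups were apart, and the fold change was -1.73 (SE 0.34) (limma adjusted p 0.127, and 0.0226 in the 12-pad fit), while Peg3 differed by -0.96 (SE 0.34).

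**Figure D3:**
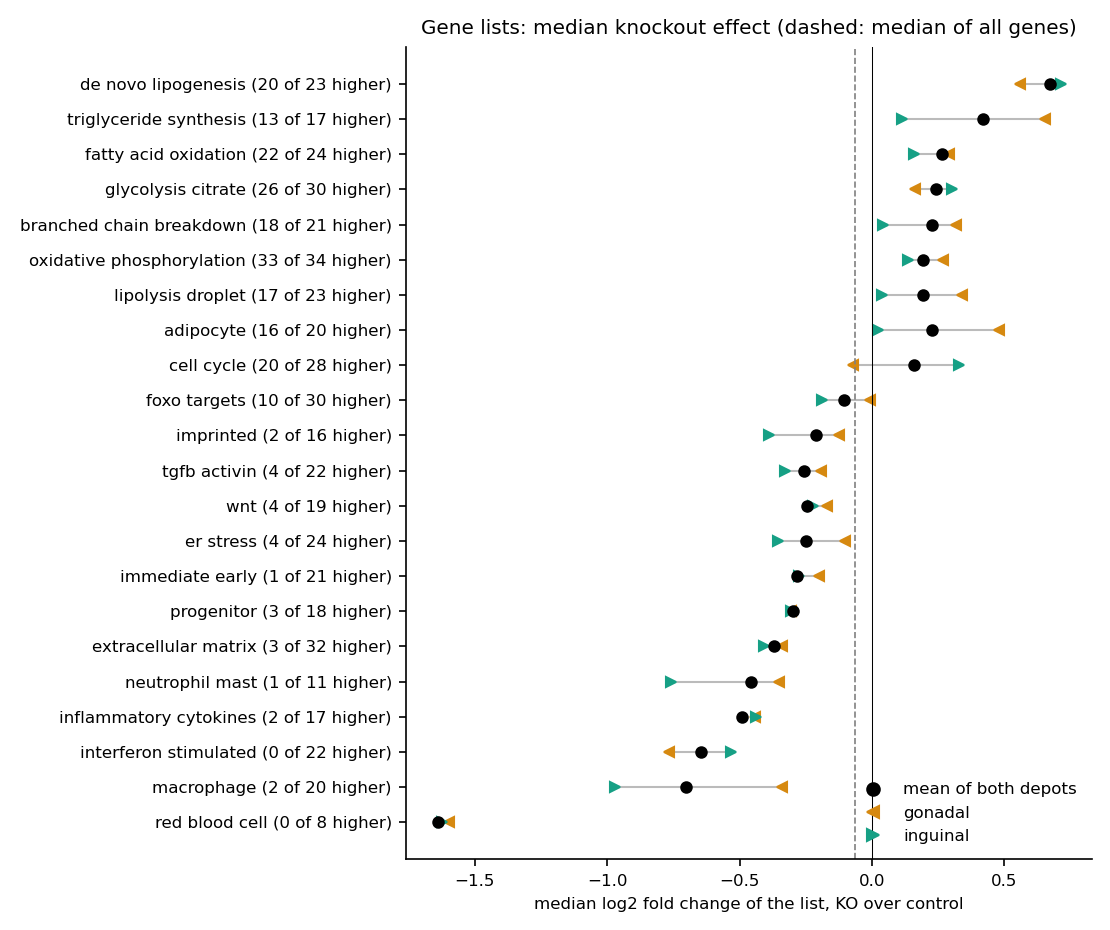
Median log2 fold change (knockout over control) of 22 gene lists, over both depots (circles) and in each depot (triangles). The dashed line is the median of all 13201 genes. Lipogenesis stands at 0.67 and red blood cell genes at -1.64, and the count of higher members is beside each name.

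Several further lists showed members in both directions. Over all genes tested, 4.79% were higher and 10.1% lower at an unadjusted p under 0.05. The counts at that p that follow are small and are not read as results of the lists. Adipokine genes had 4 higher and 3 lower members at an unadjusted p under 0.05 of 17. Agt, angiotensinogen, had 11.5, 6.37 and 6.23 FPKM in knockout pads, against 84.1, 34.4 and 38.5 FPKM in control pads in inguinal fat and a shared fold change of -1.66 (SE 0.33), while the retinol-binding protein gene Rbp4 differed by 0.91 (SE 0.22) and Orm1, an acute phase protein gene, by 0.44 (SE 0.11). At the same p, fatty acid uptake genes had 4 higher and 2 lower of 18, cholesterol genes 5 and 1 of 23, and circadian genes 5 and 1 of 18. Adipogenic factors had 3 higher and 4 lower of 22, thermogenic genes 2 and 1 of 12, and autophagy and lysosome genes 2 and 4 of 31. Skeletal muscle markers were lower in 9 of 11, but at 0.68 in gonadal and -2.06 in inguinal fat their medians pointed opposite ways. Their summed level in inguinal pads was 178, 496 and 73.1 FPKM in knockout and 976, 920.5 and 167 FPKM in control mice, and its part in the other values was not tested.

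The size of the knockout effect was compared between depots within each mouse. No gene passed (smallest limma adjusted p 0.274, with 878 genes or 6.65% at an unadjusted p under 0.05). Among the 30 genes of the naming rule, all 15 lower ones had a more negative fold change in inguinal than in gonadal fat. Over all genes tested, without scaling, the median was lower in inguinal fat too, at -0.10 against -0.026 in gonadal fat. Knockout pads lay below all controls in 17.5% of all genes in inguinal and 8.01% in gonadal fat. Of the 878 genes, 761 (5.76% of those tested) also had a lower value in inguinal fat. Among the 30 genes Aqp5 differed most between depots, with a gonadal value of -1.87 (SE 0.65) and an inguinal value of -5.42 (SE 0.98), a difference of 3.55 (95% interval 2.65 to 4.44, limma adjusted p 0.274). Akr1cl followed with a gonadal value of -3.32 (SE 0.77) and an inguinal value of -5.72 (SE 0.60) (difference 2.4, 95% interval 1.74 to 3.06). For Fasn, with 1.52 (SE 0.31) and 1.35 (SE 0.26), the interval of the difference ran from -1.40 to 1.74, too wide to tell the depots apart. Gsta3, with a gonadal value of 0.97 (SE 0.098) and an inguinal value of 1.24 (SE 0.16), had an interval from -0.82 to 0.28.

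**Figure D4:**
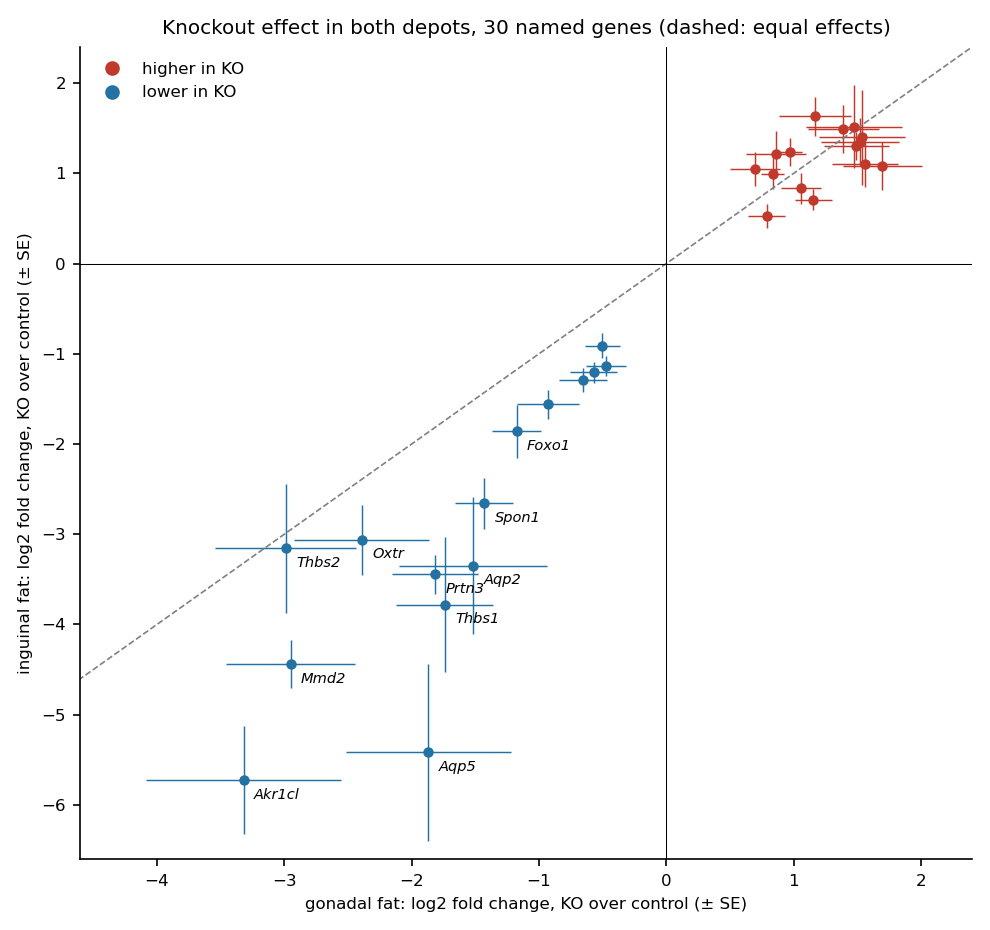
Log2 fold change (knockout over control) in gonadal fat on the x axis and inguinal fat on the y axis for the 30 genes of the naming rule, with standard errors (3 mice against 3). The pads of both depots come from the same mice. The 15 lower genes lie below the dashed line of equal effects, with Akr1cl lowest at -5.72 in inguinal fat.

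The mice of a genotype were not alike. Among the 353 lower genes, control M7 was the control nearest to the knockouts in 77.6% in inguinal and 52.4% in gonadal fat. Among the 212 higher genes, knockout M5 was the knockout nearest to the controls in gonadal fat in 78.8%, and control M7 was the nearest control in inguinal fat in 74.1%. Without M7 the main fit called 27 genes, 10 higher and 17 lower, of which 10 are among the 30 named genes. With any one of the other 5 mice left out it called 0.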

How the data were processed

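Total RNA of gonadal and inguinal fat was sequenced. CASAVA, STAR and the build mm10 come from the submitters' processing notes, and the sources used here do not give the counting tool or strand. Per the file headers, the authors deposited FPKM for 35275 genes in 24 libraries, and, for genes listed as changed, read counts, the authors' group means, a signal scaled by size factors, and other columns such as gene length. These 2 comparison tables gave the library totals, from genes with at least 50 reads. Genotype and depot were read from the library names: z was taken as knockout, since the z columns make up the authors' knockout mean, f as floxed control, e as epididymal (gonadal) and s as subcutaneous (inguinal). Names carry mouse numbers but no replicate number of the labels. The sources used here do not say if the paired libraries of a pad share tissue or RNA.

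Genes averaging 0.5 FPKM or more in both depots were tested on log2(FPKM + 0.5) by limma 3.58.1 (R 4.3.3; two-sided, with trend and Benjamini-Hochberg adjustment) on mouse means of both depots, 3 against 3. The p-values measure the spread between these mice. Depot differences used gonadal minus inguinal values within a mouse. The 12-pad fit used duplicateCorrelation. Read numbers were rebuilt from FPKM, gene length and library total, and 100% of values came out whole (tolerance 0.001). These counts, summed per mouse, were also tested with edgeR 4.0.16 (quasi-likelihood; 0 called) and DESeq2 1.42.0 (652 called). Only the main fit was run on simulated reads with known changes. The 12-pad fit, the depot differences, edgeR and DESeq2 were not.

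Named genes are Foxo1 and, among genes apart in both depots with at least 1 FPKM in a group and no unnamed models or pseudogenes, the 10 with the smallest p and the 8 with the largest change each way (30 genes), then, in each list described, up to 4 members by smallest p. Of 850 list genes in 42 lists, 847 were found. The members and lists were chosen with earlier results of these data known.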

Additional observations from a re-analysis of the deposited data

How the results depend on the processing

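The count of genes passing the main test was 1, and 0 with a pseudocount of 0.1, with no filter on low values, with scaled libraries and with edgeR. It was 0 to 27 with any one mouse left out, 107 on 12 pads with the mouse as a random block, 284 with pads counted as independent, 2894 with libraries counted as independent and 652 with DESeq2. The edgeR fit gave 896 higher and 858 lower genes at an unadjusted p under 0.05, against 632 and 1328 in the main fit. The count of genes apart in both depots was 565, and 832 to 1686 with one mouse left out, since fewer pads are then required to lie apart. The 12-pad fit, whose repeats were chosen after seeing the data, called 107 genes, 91 with scaled libraries and 0 to 406 with one mouse left out. The cause of these shifts was not tested, and with a mouse left out the smaller group has 2 mice. Of 508 refits of the 30 named genes 119 passed the threshold where the main fit did not, and 9, all of Gsta3, no longer passed. The 119 include refits that count pads or libraries of a mouse as independent, so they do not measure stability. Of the 30 genes, 25 passed in the 12-pad fit, 30 with DESeq2, 10 without control M7 and 0 with edgeR. The signs of these genes were fixed by choosing genes whose pads did not overlap. List medians that changed sign in at least 1 setting were those of adipokines, autophagy, B cells, T and NK cells, cholesterol, endothelial, epithelial, fatty acid uptake, hormone receptor, insulin signalling, male tract, mural, oxidative defence and Schwann cell genes. No paired analysis was possible because the library names carry no replicate number of the labels, so knockout and control libraries have no number in common. The depots were paired by mouse number. Intervals and tests cover 3 mice a genotype, and genes near 0.5 FPKM are limited by the pseudocount.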

Other observations

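Several genes of the major histocompatibility complex on chromosome 17, chosen after their values were seen, were lower in knockout pads, and in some of them knockout M12 was far below the other knockouts. H2-Eb1, a class II beta chain gene, had 127, 126 and 8.35 FPKM in knockout pads, against 279.8, 234 and 249 FPKM in control pads in gonadal fat. In inguinal fat it had 128, 54.3 and 14.9 FPKM in knockout pads, against 283, 155 and 350.5 FPKM in control pads. The pads of M12 stood lowest in both depots, and the shared fold change was -2.33 (SE 0.85) (limma adjusted p 0.285). H2-T23, a nonclassical class I gene, had 48.4, 37.3 and 3.33 FPKM in knockout pads, against 89.6, 93.1 and 85.9 FPKM in control pads in gonadal fat, with the same mouse lowest. H2-T22 had 33.4, 32 and 5.98 FPKM in knockout pads, against 53.5, 71 and 66.5 FPKM in control pads in inguinal fat. H2-D1, a classical class I gene of the same region, had 1368, 1289 and 1260.3 FPKM in knockout pads, against 2071, 1175 and 1066 FPKM in control pads in gonadal fat and differed by 0.044 (SE 0.22). In inguinal fat M12 was not the lowest knockout in H2-Ab1, with 204, 83.3 and 120.4 FPKM in knockout pads, in H2-DMb1, with 12.9, 7.4 and 11.5 FPKM, or in H2-Eb2, with 4.37, 0.0675 and 4.89 FPKM. The H2 genes are close relatives and the sources used here do not say how shared reads were counted.

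Gas6, the ligand of the TAM receptor kinases, was chosen after its values were seen. It had 208, 209.7 and 144 FPKM in knockout pads, against 664, 368 and 519 FPKM in control pads in gonadal fat. In inguinal fat it had 44.7, 48.1 and 49.9 FPKM in knockout pads, against 654, 171 and 434 FPKM in control pads. The groups were apart in both depots, with a fold change of -2.18 (SE 0.33) (limma adjusted p 0.11, and 0.0303 in the 12-pad fit). The platelet genes Ppbp and Pf4, neighbours on chromosome 5, were also chosen after their values were seen. They differed by -0.83 (SE 0.13) and -0.90 (SE 0.18), in the same direction as the red blood cell genes. A link to those was not tested, and Ppbp had 0.221 to 2.36 FPKM, near the pseudocount. Tgm2, a transglutaminase gene, and Pnp, a purine nucleoside phosphorylase gene, chosen in the same way, differed by -1.17 (SE 0.19) and -1.27 (SE 0.26).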
